A study of Mus musculus with 6 samples.

Results

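10 genes of the bone lineage were followed in cultured stromal cells of the mouse prostate: the transcription factors Runx1, Runx2, Sp7, Msx1 and Msx2, the matrix and mineral genes Spp1, Mgp and Alpl, and the pair Tnfrsf11b and Tnfsf11, which encode osteoprotegerin and its ligand. They were taken by name, and all 10 were among the 24346 gene symbols of the deposited files. 3 libraries of cells infected with a lentiviral vector (FU-CGW) were compared with 3 libraries of cells infected with that vector carrying the cDNA of S37A β-catenin, a mutant in which an alanine replaces a serine of the degradation signal. All cells came from C57BL/6 mice 8 to 12 weeks old, were grown on collagen I with serum, insulin and 1e-10 M dihydrotestosterone, were freed of the cells that had not attached 30 min after replating, and were used within 3 weeks of dissociation. Nothing in the labels ties the 3 libraries of a group to different cultures or mice, so p-values speak only of the spread among these libraries, which may be technical. The cells are a mixed primary culture and not a line, and the introduced cDNA was expressed in whichever cells the virus had entered.

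In bone, Runx2 and, after it, Sp7 (osterix) commit mesenchymal cells to the osteoblast fate, and canonical Wnt signalling through β-catenin is one of the main inputs to that decision. Osteoblasts and stromal cells also set the pace of bone resorption: Tnfsf11 (RANKL) is the ligand that drives osteoclast formation through the receptor RANK, and Tnfrsf11b (osteoprotegerin) is a secreted decoy receptor that takes RANKL out of play. In osteoblasts Tnfrsf11b is a known target of β-catenin. Several of these genes are also active outside the skeleton, Spp1 and Mgp among them in fibroblasts, smooth muscle and macrophages.

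Osteoprotegerin, matrix Gla protein and Runx1 transcripts rose in S37A cells, and no other member passed the test in either direction. Levels are FPKM, fragment numbers scaled to transcript length and to library size, which can be set side by side between genes. Of the 10 genes, 7 averaged at least 0.5 FPKM in the 6 libraries and were tested; of these 3 were higher, 0 were lower and 4 did not pass. The test was limma with an intensity trend on log2(FPKM + 1), adjusted by the Benjamini-Hochberg method over all 12022 genes tested, at a threshold of 0.05. Of those 12022 genes 6.06% were called higher, 19.9% lower and 26.0% in either direction. The same 3 members, of 7, were the ones whose 3 vector and 3 S37A libraries did not overlap, all with S37A above; over all tested genes the groups were apart in that direction for 11.3%, with S37A below for 36.5% and in either direction for 47.8%. The median log2 difference was 0.11 over the 7 members and -0.07 over all tested genes. At an unadjusted p under 0.05, limma also placed 3 members higher and 0 lower. The share of all tested genes at that unadjusted threshold was not counted, so unadjusted counts, here and below, have no background. Sp7, Alpl and Tnfsf11 lay under the filter and are described by their values. The share of genes under the filter whose groups were apart was not counted.

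**Figure D1:**
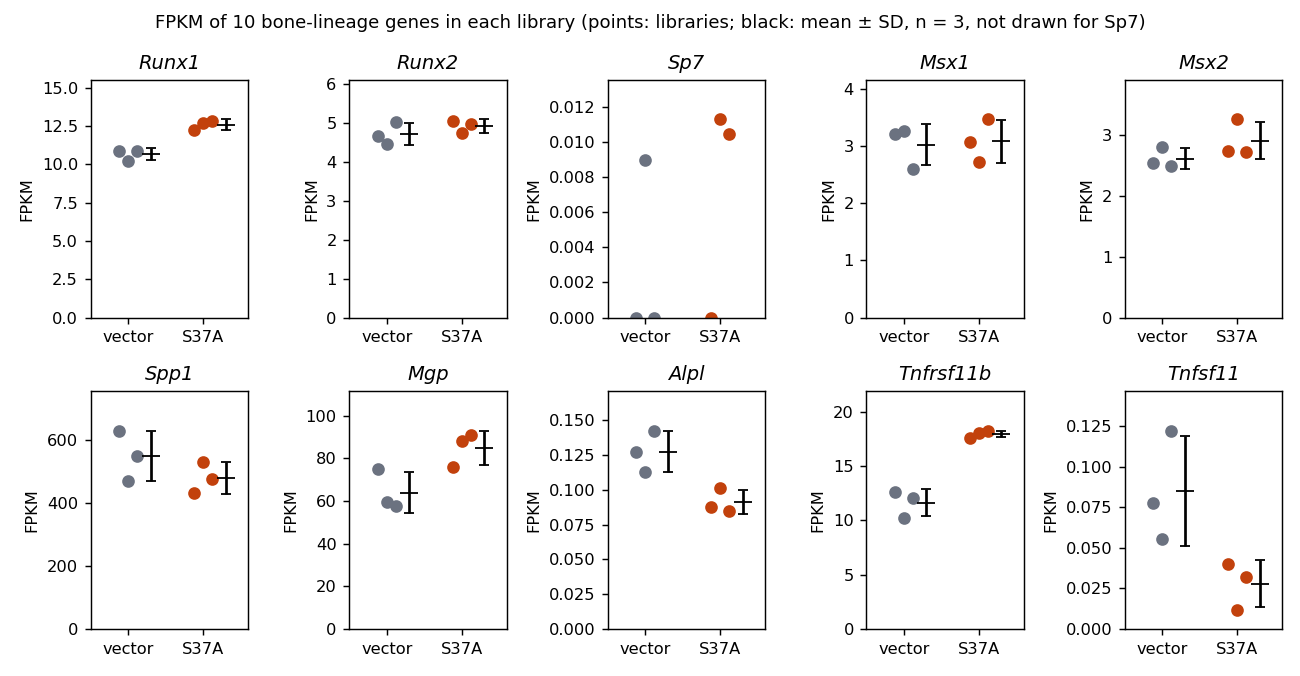
FPKM of each of the 10 genes (y axis, from 0, with a scale of its own in each panel) in the 3 vector and 3 S37A libraries (points), with the mean ± SD of each group in black except for Sp7. The vector and S37A points are apart for Runx1, Mgp and Tnfrsf11b, where S37A is higher, and for Alpl and Tnfsf11, where it is lower.

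The libraries stood close to each other in depth and differed in a β-catenin target as labelled. Interval widths in the files corresponded to between 40.4 M and 50.7 M fragments a library. Axin2, a feedback target of β-catenin, was at 0.0921 to 0.169 FPKM in vector and 2.74 to 3.29 FPKM in S37A libraries, and Ctnnb1 itself at 99.1 to 116 and 132 to 146 FPKM, without a separation of introduced from endogenous transcripts. Fibroblast and smooth muscle markers such as Acta2 (3118 to 3254 FPKM in vector, 3471 to 3700 FPKM in S37A) were abundant, whereas the osteoblast marker Ibsp (bone sialoprotein) did not exceed 0.0354 FPKM in any library. The balance of higher and lower calls depended on library scaling: 729 genes were higher and 2393 lower as deposited, 1339 and 890 with median-ratio scaling, 1094 and 957 after quantile normalization, and 900 and 1500 once the 100 most abundant genes were taken out. Under each of these 3 scalings Runx1, Mgp and Tnfrsf11b stayed called higher and no member was called lower.

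The 10 genes differed widely in abundance. By mean FPKM over the 6 libraries Spp1 ranked number 88 of all symbols, Mgp number 965, Tnfrsf11b number 4247, Runx1 number 5027 and Runx2 number 7825. Msx1 and Msx2 followed at a mean of 3.06 and 2.75 FPKM, a pair whose libraries overlapped in both groups. Alpl, at a mean of 0.109 FPKM, and Tnfsf11, at 0.0564 FPKM, were trace transcripts. Sp7 stood last at 0.00513 FPKM. Tnfrsf11b and Runx1 overlapped in the vector libraries (10.2 to 12.6 against 10.2 to 10.9 FPKM) and no longer did so with S37A (17.6 to 18.2 against 12.2 to 12.8 FPKM).

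Runx1, a DNA-binding subunit of core-binding factor that is best known in blood cell formation and is also active in skeletal progenitors, rose slightly. The gene lies on chromosome 16 from 92601466 to 92826149 (mm10, minus strand, protein-coding) and has a distal and a proximal promoter. Its FPKM was 10.9, 10.2 and 10.9 with the vector and 12.2, 12.7 and 12.8 with S37A. Every S37A library was above every vector library. On the log2 scale S37A was higher by 0.22 (SE 0.04, limma adjusted p = 0.0134), or a ratio of means of 1.18. The call was lost without S37A replicate 2 (limma adjusted p = 0.0511) or without S37A replicate 3 (limma adjusted p = 0.0599).

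All of the Runx1 signal was assigned to transcripts of the proximal promoter. The 2 models from the distal start were listed at 0 FPKM in all 6 libraries, and the 2 models from the proximal start carried the whole level. The 250 bases before each start are shown because they are the alternative beginnings of this gene, and were taken from RefSeq's table on GRCm38.p6, the same coordinates as mm10 (minus strand, 5′ to 3′, chr16:92826075-92826324 for the distal and chr16:92697330-92697579 for the proximal start).
Runx1 distal promoter: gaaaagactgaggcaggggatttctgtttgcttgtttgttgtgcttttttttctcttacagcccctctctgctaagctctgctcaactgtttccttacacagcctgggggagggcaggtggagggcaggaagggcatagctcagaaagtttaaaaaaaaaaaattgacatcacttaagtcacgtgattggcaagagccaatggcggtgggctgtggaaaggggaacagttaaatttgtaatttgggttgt
Runx1 proximal promoter: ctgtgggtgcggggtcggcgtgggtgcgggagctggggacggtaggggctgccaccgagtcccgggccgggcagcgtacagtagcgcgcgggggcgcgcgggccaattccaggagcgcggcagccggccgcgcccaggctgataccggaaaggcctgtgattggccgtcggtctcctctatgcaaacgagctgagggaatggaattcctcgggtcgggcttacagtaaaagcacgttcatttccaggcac
The proximal window was 67.6% G and C and the distal window 45.6%, against a median of 52.4% over all 32851 promoter windows of that length. 2 motifs were looked for on both strands, in capitals where present: the core of TCF/LEF factors (CTTTGAA, or CTTTGAT, or CTTTGTA, or CTTTGTT) and that of RUNX factors (TGTGGT or TGCGGT). Neither Runx1 window held one, where 14.84% of all windows held the TCF/LEF letters and 18.59% the RUNX letters.

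The proximal Runx1 models differ by a coding exon. NM_001111023 has 6 exons in GENCODE M21 and NM_009821 has 5, and the exon found only in the former is exon 4, with 192 bases or 64 codons (chr16:92644154-92644345, minus strand), so that its removal keeps the reading frame. It is shown because it is the coding sequence by which the 2 expressed models differ.
Runx1 exon 4: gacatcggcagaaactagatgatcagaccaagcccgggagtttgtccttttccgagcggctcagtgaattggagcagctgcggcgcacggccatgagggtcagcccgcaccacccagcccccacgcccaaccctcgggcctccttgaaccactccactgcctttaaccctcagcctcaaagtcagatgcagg
The model with this exon took 81.4%, 81.0% and 78.7% of Runx1 FPKM with the vector and 79.4%, 72.3% and 82.5% with S37A. These shares overlapped (difference -2.33 percentage points, exact two-sided permutation p = 0.7). Without S37A replicate 2, the lowest, the difference was 0.541 percentage points. The model with the exon went from 8.56 ± 0.304 to 9.83 ± 0.709 FPKM (SD, n = 3) and the model without it from 2.09 ± 0.195 to 2.76 ± 0.669 FPKM.

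Runx2, the master regulator of osteoblast differentiation, did not pass the test as a whole gene. It lies on chromosome 17 from 44495987 to 44814797 (minus strand). Its FPKM was 4.67, 4.45 and 5.02 with the vector and 5.06, 4.73 and 4.97 with S37A. The groups overlapped, and the log2 difference was 0.05 with a 95% interval of -0.07 to 0.17 (limma adjusted p = 0.467). The antisense gene Runx2os1 overlaps its exons, as Gm26626 does those of Runx1, and the library kit does not mark strand, so reads of either pair cannot be told apart.

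The files divide Runx2 differently between transcript models in the 2 groups, by a difference that the exact permutation test used could not call with 3 libraries against 3. Of 8 listed models 5 were above 0 in a library. The leading one, NM_001145920, was at 2.42, 2.54 and 2.50 FPKM with the vector and 1.82, 1.69 and 1.50 FPKM with S37A. Its share of Runx2 was 51.8%, 56.9% and 49.7% in vector and 36.0%, 35.8% and 30.1% in S37A. The groups were apart, by -18.9 percentage points, with an exact two-sided permutation p = 0.1, the smallest that 3 libraries against 3 allow. In the deposited confidence intervals of this model the lowest lower bound in vector was 2.20 FPKM and the highest upper bound in S37A was 2.02 FPKM. Such intervals were also apart within a group, so this separation adds no support. For the model NR_073425 the upper bound was 0.018 FPKM in S37A replicate 2 and the lower bound 1.13 FPKM in S37A replicate 1.

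The other Runx2 models changed from library to library. NM_001271630 was listed at 0, 0 and 0.789 FPKM in vector and at 1.14, 1.48 and 1.06 FPKM in S37A libraries. The non-coding model NR_073425 was at 1.55, 1.92 and 1.73 FPKM in vector and at 1.37, 0 and 1.27 FPKM in S37A libraries. Reads shared by several models were divided among them by the authors' estimation, so the shares carry its uncertainty. Models from the distal Runx2 start region, near 44814627, were above 0 only in vector replicate 1 (0.698 FPKM) and in S37A replicates 1, 2 and 3 (0.728, 1.56 and 1.15 FPKM), through the model NM_001146038 in S37A replicate 1 and the non-coding NR_073392 in the others. The 250 bases before the distal start hold a match to the RUNX core on the opposite strand, 80 to 75 bases before the start, shown in capitals (minus strand, chr17:44814628-44814877).
Runx2 distal promoter: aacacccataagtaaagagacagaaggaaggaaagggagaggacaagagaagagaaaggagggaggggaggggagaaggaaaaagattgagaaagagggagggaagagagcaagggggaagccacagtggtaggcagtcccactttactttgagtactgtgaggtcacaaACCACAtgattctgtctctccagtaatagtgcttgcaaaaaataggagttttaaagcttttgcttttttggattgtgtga

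**Figure D2:**
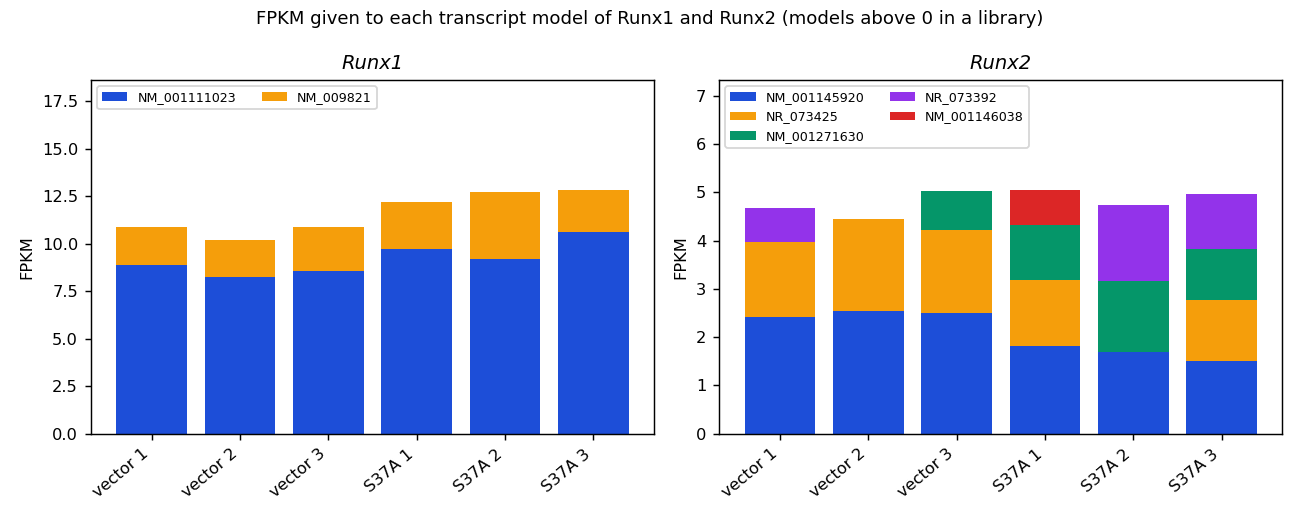
FPKM of Runx1 (left) and Runx2 (right) in each library, stacked by the transcript model to which the authors' files assign it (models above 0 in a library). The Runx1 total steps up with S37A with both models present, whereas the Runx2 totals overlap while NM_001145920 takes 49.7% to 56.9% of it in vector and 30.1% to 36.0% in S37A.

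Sp7, the zinc-finger factor that acts after Runx2 in osteoblasts, was essentially not detected. It was listed at 0, 0.00900 and 0 FPKM with the vector and at 0, 0.0113 and 0.0105 FPKM with S37A. The interval widths corresponded to a single fragment in each of the 3 libraries above 0, and 3 fragments in all 6. At this depth no difference could be read in either direction.

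Msx1 and Msx2, homeobox factors of craniofacial and limb mesenchyme that act downstream of BMP signals, were present at low and similar levels in both groups. Msx1 (chromosome 5, 37820485 to 37824583, minus strand) was at 3.21, 3.27 and 2.61 FPKM in vector and 3.08, 2.72 and 3.47 FPKM in S37A libraries. Its log2 difference was 0.02 with a 95% interval of -0.19 to 0.23 (limma adjusted p = 0.875). Msx2 (chromosome 13, 53466884 to 53473074, minus strand) was at 2.54, 2.80 and 2.48 FPKM in vector and 2.73, 3.25 and 2.72 FPKM in S37A libraries. For Msx2 the groups also overlapped, through vector replicate 2, and the log2 difference was 0.11 with a 95% interval of -0.05 to 0.27 (limma adjusted p = 0.252).

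**Figure D3:**
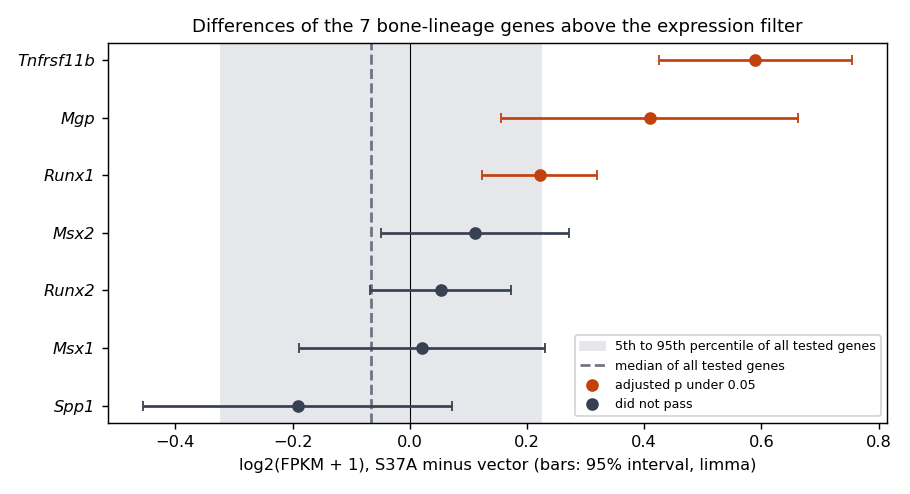
Log2 differences, S37A minus vector, of the 7 genes tested (points, with 95% limma intervals as bars); the grey band spans the 5th to 95th percentile of all tested genes, -0.32 to 0.22, and the dashed line their median of -0.07. The intervals of Tnfrsf11b, Mgp and Runx1 lie above 0 and those of the other 4 genes include it.

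Spp1, which encodes the secreted phosphoprotein osteopontin, a ligand of integrins and CD44, was the most abundant member and did not pass the test. It lies on chromosome 5 from 104435118 to 104441050 (plus strand). Its FPKM was 629, 471 and 549 with the vector and 431, 531 and 477 with S37A. The highest S37A library lay above the lowest vector library, and the log2 difference was -0.19 with a 95% interval of -0.45 to 0.07 (limma adjusted p = 0.231). A single one of its 5 listed models, NM_009263, carried the whole level in all 6 libraries, so its signal came from the upstream of 2 annotated starts. Gm42793, a gene model still to be experimentally tested, overlaps its exons on the same strand, and reads of the 2 cannot be told apart. The 250 bases before that start are shown for the RUNX core in them, on the opposite strand 128 to 123 bases before the start (plus strand, chr5:104434861-104435110).
Spp1 promoter: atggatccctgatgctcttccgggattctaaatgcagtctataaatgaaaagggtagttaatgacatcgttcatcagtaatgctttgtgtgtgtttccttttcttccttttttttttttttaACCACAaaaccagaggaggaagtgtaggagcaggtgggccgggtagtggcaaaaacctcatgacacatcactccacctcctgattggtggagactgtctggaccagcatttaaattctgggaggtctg
Of the 10 members, 7 had promoter entries in the RefSeq table, with 10 windows in all. The only Runx2 window was that of the distal start. Its starts at 44736648 and 44736176, which carried most Runx2 FPKM in each library, had no window and were not searched. The RUNX core was found in 2 of the windows, those of Spp1 and distal Runx2, and the TCF/LEF core in 1, the downstream start of Spp1, whose model was listed at 0. Of all windows 18.59% held the RUNX letters and 14.84% the TCF/LEF letters, so both counts are near the background. Sp7, Mgp and Tnfrsf11b had no entry.

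Mgp, matrix Gla protein, which is made by smooth muscle cells and chondrocytes and restrains calcification of soft tissue once carboxylated with vitamin K, rose in S37A. It lies on chromosome 6 from 136872435 to 136875823 (minus strand). Its FPKM was 75.0, 59.4 and 57.6 with the vector and 75.9, 88.0 and 91.1 with S37A. The groups did not overlap, but vector replicate 1 and S37A replicate 1 differed by less than the spread within either group. Its difference on the log2 scale was 0.41 (SE 0.11, limma adjusted p = 0.0331), a ratio of means of 1.33. This call was the least stable of the 3: limma's adjusted p was 0.0691 without a filter, 0.0832 with a replicate block, 0.0963 and 0.0973 without vector replicates 2 and 3, and 0.0964 and 0.107 without S37A replicates 2 and 3.

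Alpl, tissue-nonspecific alkaline phosphatase, which frees phosphate for mineral and is an early osteoblast marker, was a trace transcript. It lies on chromosome 4 from 137741733 to 137796384 (minus strand). It was at 0.127, 0.113 and 0.142 FPKM in vector and 0.0878, 0.101 and 0.0844 FPKM in S37A libraries. The S37A libraries were all below the vector libraries, as for 36.5% of the genes above the filter. The widths corresponded to 14, 13 and 15 fragments in vector and 9, 9 and 8 in S37A, a ratio per sequenced fragment of 0.687 with an exact 95% interval of 0.404 to 1.15, which covers counting error only and includes equality. On the 6 FPKM values the two-sided exact permutation p was 0.1, the smallest possible, and limma without a filter gave an adjusted p = 0.0900.

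Tnfrsf11b, osteoprotegerin, had the largest difference of the 7 members tested. It lies on chromosome 15 from 54250619 to 54278484 (minus strand) and has a single listed model. Its FPKM was 12.6, 10.2 and 12.0 with the vector and 17.6, 18.0 and 18.2 with S37A. The S37A libraries lay close together and well above the highest vector library. The log2 difference was 0.59 (SE 0.07, 95% interval 0.43 to 0.75, limma adjusted p = 0.00445), a ratio of means of 1.54. It exceeded that of 99.08% of all tested genes, and it was called in all 15 other settings tried, with limma's adjusted p from 0.000649 to 0.0287.

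Tnfsf11, the ligand RANKL, was near the limit of detection, with lower values in S37A. It lies on chromosome 14 from 78277445 to 78308043 (minus strand). It was at 0.0774, 0.0553 and 0.122 FPKM in vector and 0.0401, 0.0116 and 0.0321 FPKM in S37A libraries. The groups did not overlap, and the widths corresponded to 8, 6 and 12 fragments against 4, 1 and 3. Among genes above the filter, 36.5% had groups apart with S37A below. Per sequenced fragment the ratio of the sums was 0.342 with an exact 95% interval of 0.134 to 0.777 for counting error only. The two-sided exact permutation p of the FPKM values was 0.1, again the smallest possible. Limma without a filter gave an adjusted p = 0.0914 and, with 0.01 FPKM added in place of 1, 0.0881, so that Tnfsf11 did not pass in either. In each library osteoprotegerin exceeded its ligand: the ratio of their FPKM was 163, 185 and 98.6 in vector and 438, 1558 and 566 in S37A libraries. All 6 ratios rest on the few Tnfsf11 fragments given above, the largest on the single fragment of S37A replicate 2.

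The receptor and signal transducers of this axis were read from a list of 18 genes of RANK signalling, other osteoprotegerin ligands and osteoclasts. Of 12 tested, limma placed 0 higher and 4 lower at an unadjusted p under 0.05. At the adjusted threshold 0 were higher, 3 were lower and 9 did not pass. Over all tested genes 19.9% were lower at the adjusted threshold, so the count of lower genes is near the background. The median log2 difference was -0.06, against -0.07 over all tested genes. The lower ones were Mmp9, a gelatinase made by osteoclasts and many other cells, from 11.3 ± 1.10 to 5.88 ± 0.483 FPKM (SD, n = 3, limma adjusted p = 0.00231), Traf3, an adaptor that restrains non-canonical NF-κB signalling, from 8.49 ± 0.295 to 6.36 ± 0.0898 FPKM (limma adjusted p = 0.00389), and the adaptor Traf2, from 6.44 ± 0.410 to 5.17 ± 0.0527 FPKM (limma adjusted p = 0.0134, and 0.0537 without S37A replicate 3). Csf1, the macrophage growth factor that osteoclast precursors also need, was the most abundant, at 477 to 498 FPKM in vector and 507 to 515 FPKM in S37A, and did not pass (limma adjusted p = 0.151, but 0.0208 with median-ratio scaling and 0.0482 with quantile normalization). RANK itself, Tnfrsf11a, was at 0.0447 to 0.0698 FPKM in vector and 0.0759 to 0.0991 FPKM in S37A libraries, under the filter. Osteoclast genes of the list were at mixed levels. Calcr, Dcstamp and Ocstamp did not exceed 0.0321 FPKM in any library, and Ocstamp was listed at 0 in 2 of them. The protease Ctsk was at 47.3 to 57.0 FPKM, Nfatc1, the master factor of osteoclasts, at 3.17 to 3.47 FPKM, Acp5 at 0.922 to 1.31 FPKM and Oscar at 0.323 to 0.598 FPKM over the 6 libraries, and none of these 4 passed in limma. Atp6v0d2, under the filter, was at 0.225 to 0.407 FPKM in vector and 0.408 to 0.576 FPKM in S37A, without overlap.

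Of 12 tested partners of the Runx proteins, in a list of 14, 2 were higher, 4 lower and 6 did not pass, with a median of -0.06. Over all tested genes 6.06% were higher and 19.9% lower, and 3 of the 6 calls were lost in 3 or more of 15 other settings. Cbfb, the common subunit that lets Runx proteins bind DNA firmly, went from 24.1 ± 0.507 to 20.8 ± 0.582 FPKM (SD, n = 3, limma adjusted p = 0.0113), opposite to Runx1. Among Groucho family corepressors, which bind both Runx and TCF factors, Tle3 fell from 12.6 ± 0.0962 to 10.6 ± 0.203 FPKM and Tle4 rose from 3.90 ± 0.128 to 4.65 ± 0.169 FPKM (limma adjusted p = 0.00814 and 0.0203). Tle4 was not called without S37A replicate 2 or 3, the higher limma adjusted p being 0.0777. The short family member Aes was called lower (208 ± 2.02 and 191 ± 1.15 FPKM, limma adjusted p = 0.0230), a call lost under each of the 3 other scalings, up to an adjusted p of 0.332. Tle1 (higher) and Hdac4 (lower), named after their values were seen, completed the calls, and were lost in 3 and 8 of 15 other settings. The cofactors Wwtr1 and Hdac5 did not pass. Yap1 (48.8 ± 0.946 and 52.5 ± 1.16 FPKM, limma adjusted p = 0.0582) passed with sample weights and under all 3 other scalings, with adjusted p of 0.0142 with median-ratio scaling, 0.0439 with quantile normalization and 0.0358 without the 100 most abundant genes.

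Among other transcription factors of skeletal mesenchyme, 3 of 8 tested were higher and 1 was lower (6.06% and 19.9% of all tested genes), with a median of 0.09, and the other 9 of the list of 17 were under the filter. Prrx2, a homeobox factor of limb and craniofacial mesenchyme, went from 3.48 ± 0.318 to 7.53 ± 1.86 FPKM (SD, n = 3, limma adjusted p = 0.00867), a larger ratio than that of any of the 7 members tested. Its relative Prrx1 rose from 21.2 ± 1.27 to 25.8 ± 0.227 FPKM and Twist1, a bHLH factor that restrains Runx2 activity, from 9.09 ± 0.322 to 11.5 ± 0.185 FPKM (limma adjusted p = 0.0102 and 0.00557). Atf4, a regulator of late osteoblast genes and of the amino acid response, was called lower (212 ± 6.76 and 189.5 ± 2.76 FPKM, limma adjusted p = 0.0193), a call lost with median-ratio scaling and without vector replicate 2 or 3 or S37A replicate 2 or 3, with adjusted p up to 0.136. The homeobox factors Dlx1 to Dlx6 did not exceed 0.470 FPKM in any library. Twist2 was at 18.9 to 21.6 and 21.3 to 21.8 FPKM and did not pass.

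Several genes of late bone and cartilage were near 0, while 3 matrix genes at higher levels passed the test. In the osteoblast and osteocyte matrix list of 19, 9 were under the filter, among them Bglap (osteocalcin), Dmp1 and Mepe, and Sost (sclerostin) was listed at 0 throughout. Of the 10 tested 1 was higher (6.06% of all tested genes were), namely Serpinh1, a collagen chaperone (919 ± 44.9 and 1046 ± 39.2 FPKM, limma adjusted p = 0.0297), and 2 were lower (19.9% of all tested genes), namely Pdpn (190.4 ± 5.18 and 165 ± 8.21 FPKM, limma adjusted p = 0.0179) and Fam20c, a kinase of secreted phosphoproteins (12.6 ± 0.102 and 11.4 ± 0.377 FPKM, limma adjusted p = 0.0426). The Fam20c call was lost in 12 of 15 other settings, the Pdpn call in 3 of 15 and the Serpinh1 call in 6 of 14. By limma at an unadjusted p under 0.05, 5 of the 10 were higher and 2 lower. The median log2 difference of the list was 0.11, against -0.07 over all tested genes. Sparc (osteonectin) was the most abundant of the list, at 3197 to 3599 and 3701 to 3821 FPKM, and did not pass (limma adjusted p = 0.0932, but 0.0385 with median-ratio scaling, 0.0414 with sample weights and 0.0458 without vector replicate 1). Of 14 chondrocyte genes 11 were under the filter, and of these Acan and Col2a1 stayed at or below 0.0415 FPKM. Limma called 0 of the 3 tested, with 1, Sox9, at an unadjusted p under 0.05. Col11a1 was at 28.9 to 45.2 FPKM in vector and 42.9 to 47.1 FPKM in S37A. It did not pass (limma adjusted p = 0.142, but 0.0332 with sample weights and 0.0271 without vector replicate 1). Col10a1 was at 1.96 to 2.82 and 1.95 to 2.58 FPKM, and Sox9 at 1.72 to 2.24 and 2.10 to 2.85 FPKM.

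Genes of phosphate handling and of vitamin K action were read because Alpl and Mgp have their roles there. Of 9 tested mineralization genes 3 were higher, 0 lower and 6 did not pass, with a median of 0.07. Over all tested genes 6.06% were higher and 19.9% lower. By limma at an unadjusted p under 0.05, 4 of the 9 were higher and 0 lower. Stc1, a secreted regulator of calcium and phosphate, went from 0.707 ± 0.207 to 1.53 ± 0.0992 FPKM (SD, n = 3, limma adjusted p = 0.00909), the phosphate transporter Slc20a1 from 33.1 ± 1.43 to 39.3 ± 2.78 FPKM (limma adjusted p = 0.0253) and the ectonucleotidase Nt5e from 5.08 ± 0.646 to 6.48 ± 0.407 FPKM (limma adjusted p = 0.0337). The Slc20a1 call was lost in 4 of 15 other settings and the Nt5e call in 7, with limma adjusted p up to 0.0878 and 0.103. Of 7 vitamin K and Gla protein genes, Vkorc1l1, a vitamin K epoxide reductase, was higher (5.53 ± 0.174 and 6.50 ± 0.471 FPKM, limma adjusted p = 0.0391, lost in 8 of 15 other settings) and Nqo1, a quinone reductase, lower (30.8 ± 1.93 and 24.7 ± 0.221 FPKM, limma adjusted p = 0.00909). Gas6, another Gla protein, was at 70.6 to 87.7 and 75.8 to 81.5 FPKM and did not pass.

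Receptors of osteopontin rose in 2 of 9 cases and fell in 0, against 6.06% and 19.9% of all tested genes, with a median of 0.04. At an unadjusted p under 0.05 limma placed 4 higher and 1 lower. The subunits Itga5 and Itgb1, which pair as the main fibronectin receptor, went from 281 ± 24.7 to 357 ± 10.2 FPKM and from 783 ± 3.65 to 912 ± 48.6 FPKM (SD, n = 3, limma adjusted p = 0.0115 and 0.0155; 0.0517 and 0.0522 without S37A replicate 3). Cd44 was at 77.8 to 93.1 and 98.6 to 101 FPKM and Itgav at 88.8 to 101 and 73.5 to 86.1 FPKM, each without overlap and each short of the threshold (limma adjusted p = 0.0703 and 0.0537). Cd44 passed in 3 of 15 other settings, among them median-ratio scaling (0.0262) and removal of the 100 most abundant genes (0.0418), and Itgav in 2, with sample weights (0.0217) and without S37A replicate 1 (0.0412).

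**Figure D4:**
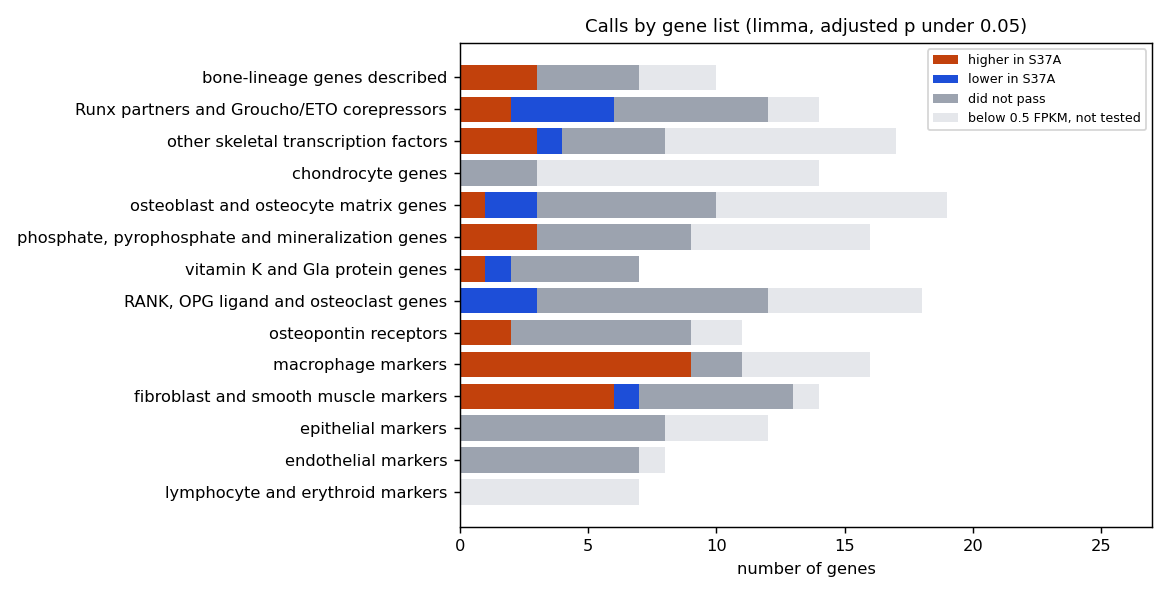
Number of genes of each list (x axis) that limma called higher in S37A, called lower, did not call, or that lay below 0.5 FPKM and were not tested. The bone-lineage genes described here split 3, 0, 4 and 3, and the macrophage markers 9, 0, 2 and 5.

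Macrophage markers moved with the groups, and Runx1, Spp1 and Mmp9 are transcribed in macrophages as well as in mesenchymal cells. Of 11 macrophage markers tested 9 were higher and 0 lower (10 and 0 by limma at an unadjusted p under 0.05), and the summed level of the list of 16 was 24.5 to 30.9 FPKM in vector and 63.1 to 71.4 FPKM in S37A libraries. Lyz2 made up most of it, at 12.9 to 16.3 and 33.8 to 38.9 FPKM. Laptm5 went from 0.611 ± 0.0712 to 1.87 ± 0.182 FPKM (SD, n = 3, limma adjusted p = 0.00140). The ratios of S37A to vector means were largest for C1qa (5.89), C1qb (5.83), Tyrobp (5.71), C1qc (5.30) and Ctss (3.52). The defining markers Ptprc, Adgre1 and Itgam were low, at or below 0.345 FPKM in every library, and each was higher in all 3 S37A than in all 3 vector libraries, with ratios of 1.46, 2.99 and 2.15. Aif1 was listed at 0 in vector replicate 2. The part of macrophage RNA in the values of Runx1, Spp1 and Mmp9 was not tested, and in bulk RNA more cells of a type and more RNA per cell cannot be told apart. Fibroblast and smooth muscle markers moved with the groups too: 6 of 13 tested were higher and 1, Pdgfra, was lower, against 6.06% and 19.9% of all tested genes, and their summed level was 8887 to 9353 FPKM in vector and 10146 to 10497 FPKM in S37A. Among them Cnn1 (calponin), Thy1 and Col5a1 had ratios of 1.34, 1.23 and 1.23 and were called in all 15 other settings. The other 3 higher calls were less stable: Acta2 kept its call in 6 of 14 other settings, Tagln in 7 of 14 and Myh11 in 5 of 15. The lower call of Pdgfra was kept in 13 of 15. The part of the fibroblast and smooth muscle shift in the higher values of Mgp, Tnfrsf11b and Runx1 was not tested. Of 8 epithelial and 7 endothelial markers tested limma called 0, with 1 higher and 1 lower at an unadjusted p under 0.05. The most abundant epithelial marker, Cldn4, was at 9.29 to 14.7 FPKM in vector and 7.68 to 12.1 FPKM in S37A (limma adjusted p = 0.457). The most abundant endothelial marker, Emcn, was at 71.7 to 81.7 and 67.3 to 70.4 FPKM (limma adjusted p = 0.0696).

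The genes whose levels followed Tnfrsf11b most closely over the 6 libraries were Rian, a long non-coding RNA, with a Pearson r of 0.9991, and Arl4c, a small GTPase, and Cald1, the actin regulator caldesmon, both at 0.9987. These are descriptions over 6 libraries that share their grouping, and 320 of the 12021 other genes reached an r of 0.95. Arl4c was at 10.9 to 13.2 FPKM in vector and 17.1 to 17.8 FPKM in S37A libraries, Rian at 61.7 to 69.6 and 86.2 to 87.1 FPKM, and Cald1 at 392 to 443 and 543 to 562 FPKM.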

How the data were processed

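RNA of 6 libraries of mouse prostate stromal cells was made into complementary DNA with a SMART-Seq v4 kit, per the labels' protocols. The tools named in the submitters' processing notes are bcl2fastq (1.8.3), TopHat and Cufflinks, and the build is mm10; other versions are not given in the sources used here. The deposited values are FPKM of 34535 transcript models with confidence bounds, and a coverage signal and a length per model, per the file headers. The coverage signal of the authors' files was used only to compare depth.

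FPKM were summed by symbol. Leaving aside 5 genes with a failed status in a library, 12022 averaged 0.5 FPKM or more and entered limma 3.58.1 (R 4.3.3) as log2(FPKM + 1), where the fit had an intensity trend and no block, with p-values adjusted by Benjamini-Hochberg. Ratios are of mean FPKM without a pseudocount; log2 differences understate changes of low genes. Shares of transcript models and genes under the filter were compared by exact permutation. Fragment numbers were inferred from interval widths (4 times the squared ratio of FPKM to the upper half-width) and, for Sp7, Alpl and Tnfsf11, lay within 0.091 of whole numbers; they cover counting error only. No 2 libraries shared identical values in more than 0.258% of tested genes. GENCODE M21 (mm10, 1-based) gave the gene positions. The limma fit alone was also run on simulated data, independent noise with or without a shift in some genes. That run did not cover scaling, transcript models or permutation tests, and its outcome is not given here.

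The members and all gene lists were chosen with earlier results of these data known. Genes named are the members, Ctnnb1 and Axin2, and from each other list up to 4 called genes with the smallest p, the most abundant gene and, for factors and receptors, those of at least 10 FPKM; other genes are named as levels only or were named after their values were seen. The lymphocyte and erythroid list had 0 of its 7 genes above the filter, and its most abundant, Cd79a, reached 0.105 FPKM at most. Alternatives were another pseudocount, filter, scaling, trend, sample weights, a replicate block and leaving out each library.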

Additional observations from a re-analysis of the deposited data

How the results depend on the processing

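Of the 7 members tested 3 were called higher, and this number ran from 1 to 3 when a library was left out (1 without S37A replicate 2 or 3, 2 without vector replicate 2 or 3); the replicate block and the omission of the filter each gave 2, and the other settings 3. The number called lower was 0 throughout, also from 0 to 0 with a library left out. Tnfrsf11b was called in all 15 alternatives, Runx1 in 13 and Mgp in 9. Over all genes, 729 higher and 2393 lower calls became 1339 and 890 with median-ratio scaling, 1094 and 957 with quantile normalization, 900 and 1500 without the 100 most abundant genes, which include Spp1, 1238 and 3655 with sample weights, and from 276 to 744 and from 547 to 2406 with a library left out. The replicate block gave 442 and 1193 calls. Of 3 vector libraries, 1 correlated best with the S37A library of its own number. With so few libraries this cannot decide whether the numbers pair the samples. Signs turned for differences near 0 that had not been called: Msx1 (-0.057 to 0.087 with a library left out, below 0 without replicate 3 of either group), Gas6 (-0.0099 to 0.144, below 0 without vector replicate 3), Hdac5 (0.018 with median-ratio scaling, 0.015 with quantile normalization) and Itgb5 (0.072 with median-ratio scaling, 0.0060 with quantile normalization, 0.027 without the 100 most abundant genes, -0.072 to 0.051 with a library left out). The Runx1 model share differed by -4.54 to 0.541 and the Runx2 model share by -20.4 to -16.8 percentage points with a library left out. The setting without a filter and with 0.01 FPKM added was chosen after seeing the data. Depth limits Sp7, Tnfsf11 and Alpl, which rest on 3, 34 and 68 fragments. The cause of these shifts was not tested.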
